A study of Homo sapiens with 3 samples.

Results

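GRB10 and 7 further genes of insulin and insulin-like growth factor (IGF) receptor signalling, GRB14, INSR, IGF1R, IGF2R, IRS1, IRS2 and IRS4, were followed in a MATR3 PAR-CLIP experiment. They were found by their gene names among the deposited read clusters, and GRB10 had been picked because it is one of the genes with most reads. The 8 genes held 249, 266 and 253 clusters in replicates 1, 2 and 3, of 133088, 131679 and 124040 clusters in all. MATR3 (matrin 3) is a nuclear RNA-binding protein. PAR-CLIP crosslinks a protein to RNA that carries a photoreactive uridine analogue, and crosslinked uridines are read as T-to-C changes. All libraries came from wild-type, untreated HEK293, a cell line derived from human embryonic kidney, and were precipitated with an antibody against MATR3. They form a single group of 3 biological replicates without a control library.

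Insulin and the IGFs act through the receptor tyrosine kinases INSR and IGF1R, which phosphorylate the IRS docking proteins and so engage PI3-kinase and AKT. GRB10 and GRB14 are adaptors that bind the activated receptors and dampen their signal. GRB10 is also an imprinted gene with several promoters, and IGF2R clears IGF2 from the cell surface without a kinase of its own.

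Every listed cluster had at least 4 reads, at least 4 of them with T-to-C, and at least 2 T-to-C positions. Weaker sites were thus not detectable, and the depth of the libraries before clustering is unknown. Reads in gene-annotated clusters numbered 1448303, 1328093 and 1358924. Of the HEK293 markers VIM, PAX2, LIN28B, NEFL and NEFM, the first 3 had clusters in at least 2 replicates, while NEFL and NEFM had none. ALB, PTPRC, HBB and INS, markers of other cells, had none either. Clusters show bound RNA and depend on both binding and transcript abundance, which were not separated here.

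GRB10 sites held by all 3 replicates are shown first, because they are the positions in the gene that recurred. After clusters of the replicates had been merged where they overlapped by at least 1 nt, 13 such sites remained, and the 5 with the largest geometric mean of reads follow. Sequences are hg38, written along the transcript from the minus strand of chromosome 7, and capitals mark bases covered by clusters of all 3 replicates.
GRB10 site 1, chr7:50731013-50731173, intron 4: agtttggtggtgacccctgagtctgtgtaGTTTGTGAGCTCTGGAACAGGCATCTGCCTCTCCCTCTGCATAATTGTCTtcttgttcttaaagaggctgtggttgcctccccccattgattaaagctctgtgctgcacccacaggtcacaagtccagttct
GRB10 site 2, chr7:50756156-50756369, intron 2: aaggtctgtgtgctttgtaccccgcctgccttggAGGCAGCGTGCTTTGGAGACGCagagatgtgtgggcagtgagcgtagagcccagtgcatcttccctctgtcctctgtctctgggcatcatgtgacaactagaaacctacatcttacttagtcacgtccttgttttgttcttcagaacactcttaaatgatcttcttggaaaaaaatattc
GRB10 site 3, chr7:50598955-50599122, intron 17: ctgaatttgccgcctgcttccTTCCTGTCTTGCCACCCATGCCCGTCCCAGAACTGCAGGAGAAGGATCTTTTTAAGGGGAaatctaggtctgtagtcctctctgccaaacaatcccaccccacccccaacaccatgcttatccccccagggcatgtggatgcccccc
GRB10 site 4, chr7:50764470-50764656, intron 2: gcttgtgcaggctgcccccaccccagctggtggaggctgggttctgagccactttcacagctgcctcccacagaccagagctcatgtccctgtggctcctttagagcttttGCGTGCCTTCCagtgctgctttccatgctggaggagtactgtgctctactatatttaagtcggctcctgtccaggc
GRB10 site 5, chr7:50693844-50694043, intron 5: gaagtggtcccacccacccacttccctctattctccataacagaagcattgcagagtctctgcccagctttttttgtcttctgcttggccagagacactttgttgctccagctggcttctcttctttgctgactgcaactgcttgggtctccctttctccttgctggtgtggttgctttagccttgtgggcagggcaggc

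Site 1 had 30, 24 and 24 reads in replicates 1, 2 and 3, the most even of the 5. Site 2 had 24, 49 and 14 reads, and site 3 had 28, 19 and 30. At site 4 the reads were 22, 31 and 13, and only 11 nt lay in clusters of all replicates. Site 5 had 46, 7 and 21 reads and no capitals, since its clusters were joined through replicate 1 and no base was covered in all 3. Of the 13 sites, 10 had at least 1 base covered in every replicate, over at most 60 nt. They were spread over 7 introns of the MANE Select transcript, ENST00000401949.6, and all clusters in them were classed as intronic. C and T made up 51.6% to 64.5% of their bases. ATCTT, the DNA form of a motif known for MATR3, was searched on the transcript strand only and occurred in 3 of the 13, sites 2 and 3 among them. It was present in 15.3% ± 0.91 of intron clusters of other genes with lengths of 52 to 214 nt, the range of these sites (SD, n = 3). Those clusters had median lengths of 69, 69 and 67 nt and the 13 merged sites one of 136 nt, so the shares are not over equal lengths. These sites are a description, since they were chosen by recurrence.

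GRB10 stood far above the other 7 genes, IGF1R and IGF2R came next, and the remaining 5 had few clusters or none. Levels are given as normalised reads, the sum over the clusters of a gene scaled to 1000000 reads with a gene annotation. GRB10 had 3361, 2744 and 2748 reads, or 2321, 2066 and 2022 normalised reads, with a mean of 2136 ± 161 (SD, n = 3). By reads it was gene 6, 5 and 5 of each list. Since the gene was chosen for this level, no test was made. IGF1R had 270, 407 and 339 reads, or 186, 306 and 249 normalised reads. For IGF2R the reads were 257, 252 and 244, or 177, 190 and 180 normalised reads. The ranges of IGF1R and IGF2R overlapped, although IGF1R was the higher in each replicate, and both stayed below GRB10 and above INSR in every replicate. INSR, the insulin receptor, had only 7, 15 and 29 reads, or 4.83, 11.3 and 21.3 normalised reads. GRB14 had 5 and 7 reads in replicates 1 and 2 and none listed in replicate 3. IRS2 had 7 and 6 reads in replicates 2 and 3 and none listed in replicate 1. IRS1 and IRS4 had no cluster. IRS4 is the IRS protein known to be abundant in this line, but transcript abundance was not measured here. GRB10 thus supplied 86.2%, 80.0% and 81.6% of the reads of the 8 genes.

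**Figure D1:**
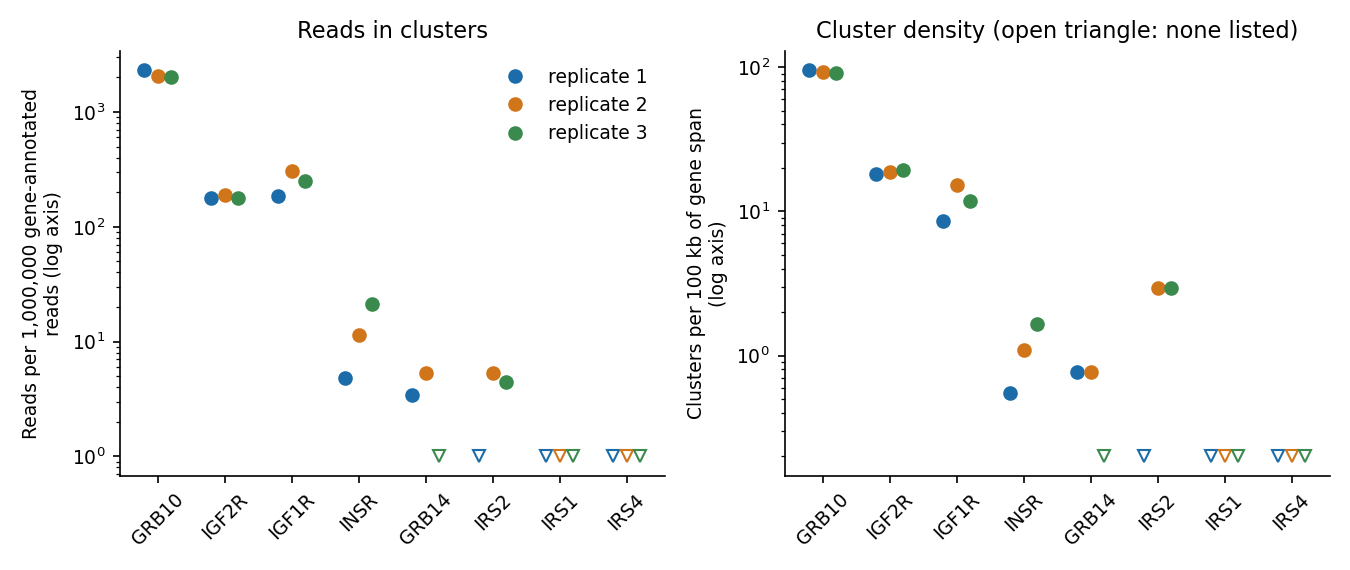
Reads per 1000000 gene-annotated reads (left) and clusters per 100 kb of gene span (right) for each gene, both on log axes, with 1 point per replicate. Open triangles at the bottom mark replicates with no cluster listed. GRB10 lies at 2022 normalised reads or more in 3 of 3 replicates, and IGF1R and IGF2R lie between 177 and 306.

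Per length of gene the order was similar at the top, and IGF2R moved above IGF1R. GRB10 (ENSG00000106070.20, chr7:50590063-50793462, minus strand) spans 203.4 kb and had 95.4, 91.9 and 90.5 clusters per 100 kb. INSR (chr19:7112255-7294414, minus strand) spans 182 kb and had 0.549, 1.10 and 1.65. IGF1R (chr15:98648539-98964530, plus strand), with 316 kb the longest of the 8, had 8.54, 15.2 and 11.7. IGF2R (chr6:159969082-160113507, plus strand), of 144 kb, had 18, 18.7 and 19.4, and its values did not overlap those of IGF1R. GRB14 (chr2:164492417-164621482, minus strand) had 0.775, 0.775 and 0 over 129 kb. IRS1, IRS2 and IRS4 are shorter, at 68.5, 33.9 and 16.6 kb.

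Of the 8 genes, 4 had a cluster in all 3 replicates, GRB10, INSR, IGF1R and IGF2R, the first of them picked for its reads. Among the protein-coding genes in GENCODE release 44 the share was 40.7%. These 4 and GRB14 span at least 100 kb, where the share was 56.4%. IRS1, IRS2 and IRS4 are shorter, where it was 37.2%, and none of them reached all replicates. At least 1 replicate listed a cluster for 6 of the 8, against 55.8% of protein-coding genes, and 4 of those 6 reached all replicates, against 65.7% of all gene names with any cluster. The count of 6 and the step from 6 to 4 rest on few genes. Among the 2067 protein-coding genes of at least 100 kb with clusters in all replicates, GRB10 ranked 3 by mean cluster density and the median density was 7.31 clusters per 100 kb. IGF2R ranked 441, IGF1R 731 and INSR 1893. INSR lay at percentile 8.42 and IGF1R, the other receptor kinase, at 64.6. Among all 8157 protein-coding gene names with clusters in all replicates, whatever their length, GRB10 ranked 384 by density. There IGF2R, IGF1R and INSR lay at percentiles 47.3, 33.1 and 2.13. These ranks describe the genes, since density follows the reads that picked GRB10.

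**Figure D2:**
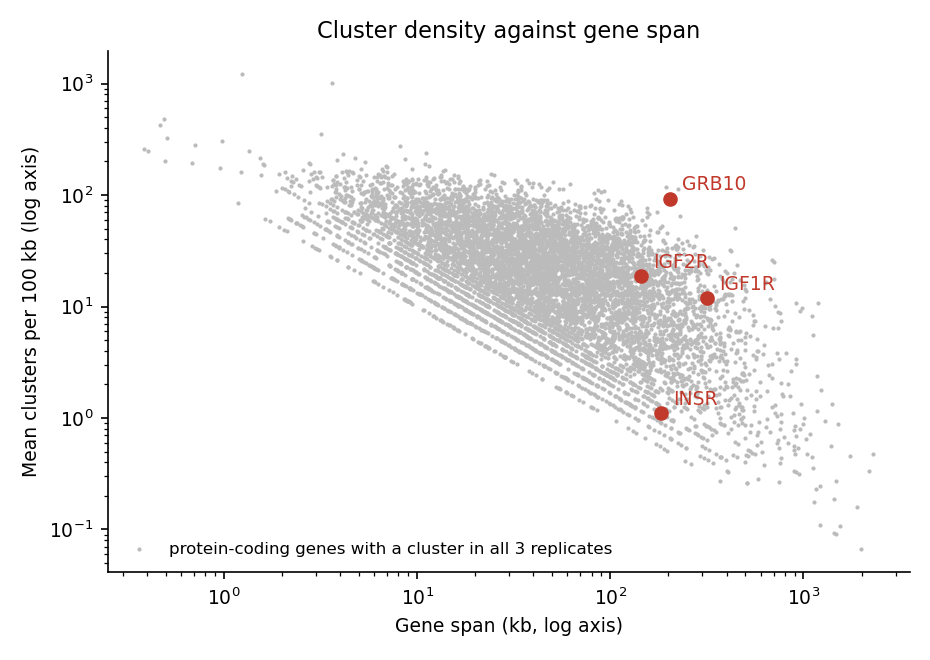
Mean clusters per 100 kb over 3 replicates against gene span in kb, both on log axes, for protein-coding genes with a cluster in all replicates (grey), with 4 of the genes described here in red. GRB10, at 92.6 clusters per 100 kb, lies at the upper edge for its span, and INSR, at 1.10, near the lower edge.

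The genes most like GRB10 in geometric mean of normalised reads and of clusters, out of 8157 protein-coding gene names, were THSD4, SND1, TBCD, TTC28 and VAV2, at distances of 0.33, 0.36, 0.46, 0.69 and 0.89 on the log2 scale. The measure was taken over 3 replicates and concerns amount only. THSD4, SND1 and TTC28 reach this amount over 686, 440 and 702 kb, whereas TBCD has 194 kb and VAV2 231 kb. Clusters covered 5.49% ± 0.56 of the GRB10 span, 7.16% ± 0.62 of TBCD and 1.38% ± 0.082 of THSD4 (SD, n = 3).

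GRB10 clusters were nearly all intronic. Introns held 185 of 194, 182 of 187 and 181 of 184 clusters, a share of 97.0% ± 1.53 against 83.4% ± 0.43 for all other named genes (SD, n = 3). The difference of 13.6 percentage points ± 1.95 had the same sign in 3 of 3 replicates. The 5 genes most like GRB10 in amount had mean shares of 96.4% to 99.4%, so the value was not particular to it. No p-value is given for the difference, because GRB10 was picked for its reads and genes with similar reads had similar shares. The other 7 members pooled had 92.0% ± 1.49 in introns, 8.51 percentage points ± 1.71 above other genes. This sign held in 3 of 3 replicates (exact two-sided sign-flip p = 0.25, the smallest possible with 3, adjusted to 0.312 over 10 tests). Of the 55, 79 and 69 pooled clusters, IGF1R supplied 27, 48 and 37 and IGF2R 26, 27 and 28. Pooled values here and below thus rest mainly on IGF1R and IGF2R.

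The few GRB10 clusters that touched exons lay at both ends of the transcript and at several internal exons. Replicate 3 had 31 reads at chr7:50591103-50591169 in the 3′ UTR, and replicate 2 had 13 reads at chr7:50591137-50591173, which overlaps it. At the boundary of the second MANE exon, in the 5′ UTR, replicate 3 had 42 reads at chr7:50780535-50780660 and replicate 1 had 20 at chr7:50780598-50780645. Replicate 2 had 23 reads at chr7:50782408-50782483 at the first MANE exon, where replicate 1 had 6. Only 1 cluster, of 5 reads in replicate 1, was classed as coding alone. None of these positions had a cluster in all 3 replicates.

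IGF1R was the member with most 3′ UTR clusters, at 4, 4 and 3 of its 27, 48 and 37 clusters. Its largest cluster of replicate 1, with 50 reads, lay there at chr15:98958630-98958796, and replicate 2 had 15 reads in the overlapping chr15:98958752-98958798. Of those 50 reads 46.0% carried T-to-C. The other 3′ UTR clusters of IGF1R, between 98957804 and 98960428, had 5 to 15 reads and overlapped in no other replicate. IGF2R had 0, 1 and 1 clusters in the 3′ UTR, and 26 intron clusters in each replicate.

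Along GRB10, cut into 10 equal stretches of 20.3 kb from its start, clusters occurred in every stretch in each replicate. The second had the highest mean, with 27, 28 and 35 clusters. The fifth had the fewest in each replicate, with 12, 8 and 6. In the last there were 18, 28 and 30. The part upstream of the midpoint of the gene held 51.5%, 47.6% and 55.4% of the clusters, against 57.6%, 58.7% and 57.0% for other genes. The difference of -6.24 percentage points ± 4.75 was negative in each of 3 replicates (exact sign-flip p = 0.25, adjusted 0.312). It ranged from -1.57 to -11.1 between replicates, and was -3.83 without replicate 2. SND1, TTC28 and VAV2, among the genes like GRB10 in amount, had 69.5%, 68.0% and 64.6% there, and THSD4 and TBCD 49.5% and 52.2%.

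By intron, the 42.7 kb intron 7 had 40, 30 and 21 clusters, or 7.10 ± 2.22 per 10 kb (SD, n = 3). Intron 2, of 24.6 kb, had 28, 29 and 29, or 11.7 ± 0.23 per 10 kb. Intron 17, of 8.47 kb near the 3′ end, had 10, 16 and 17, or 16.9 ± 4.47. Intron 17 was thus denser than intron 7 in each replicate. Upstream of the MANE start, in the 10.6 kb that the longer transcripts add, there were 10, 7 and 17 clusters. The largest GRB10 cluster of replicate 1 lay in that stretch, at chr7:50784467-50784666, with 118 reads. The largest of replicate 2 was in intron 7 and that of replicate 3 in intron 17, with 79 and 80 reads. Neither that of replicate 1 nor that of replicate 3 overlapped a cluster in another replicate. The largest cluster held 3.51%, 2.88% and 2.91% of the gene's reads, so the reads were spread over many positions.

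**Figure D3:**
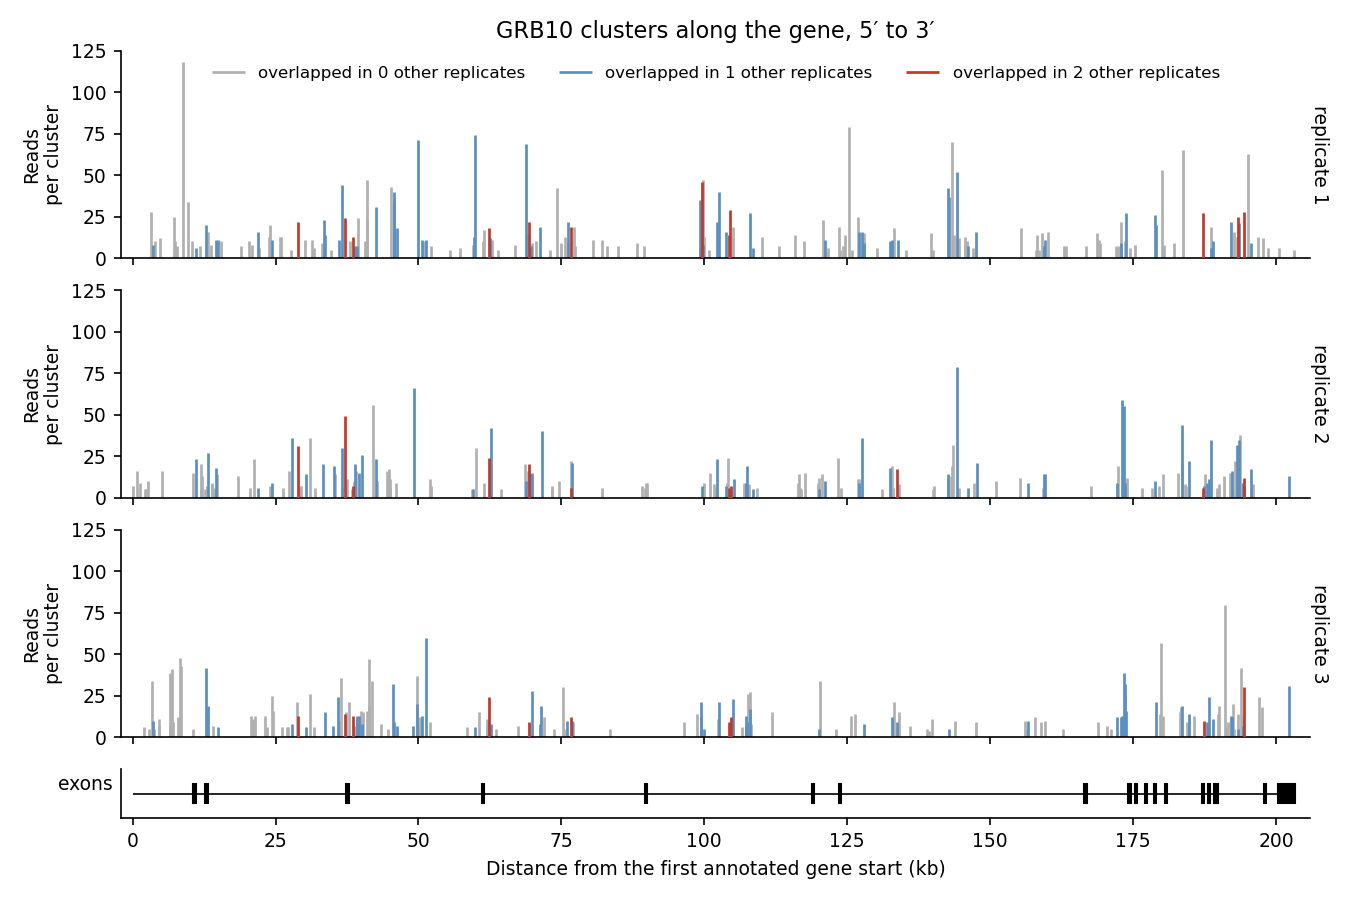
GRB10 clusters by distance in kb from the first annotated gene start, with reads per cluster as line height, 1 panel per replicate, and exons of the MANE Select transcript in black at the bottom. Colour gives the number of other replicates with an overlapping cluster. Clusters run along the whole gene, and the tallest, of 118 reads in replicate 1, is grey.

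Closeness to exons was also measured. Of GRB10 intron clusters, 15.1%, 17.0% and 12.2% had their middle within 500 nt of an annotated exon, where 13.9% of the intron bases lie. The mean of 14.8% ± 2.46 differed from that by less than the spread (SD, n = 3). In IGF2R the shares were 3.85%, 11.5% and 15.4%, below the 33.1% of its intron bases in 3 of 3 replicates. In IGF1R they were 8.70%, 15.9% and 26.5%, against 8.18% of the bases.

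IGF2R clusters were concentrated near the gene start. The first of 10 equal stretches, of 14.4 kb, held 10 of 26, 11 of 27 and 12 of 28 clusters, and intron 1 alone had 11, 12 and 13. IGF1R had 18, 26 and 23 clusters in its 183 kb intron 2 and, in the last of 10 equal stretches, 5, 10 and 9. The 7 other members pooled had 69.1%, 50.6% and 46.4% of clusters upstream of the midpoint. This differed from other genes by -2.40 percentage points ± 12.1, with both signs among the replicates (exact sign-flip p = 1.0).

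Recurrence was higher in GRB10 than in other genes, and so was the part of the gene covered. Of its clusters, 20.9%, 21.7% and 21.5% overlapped a cluster of another replicate, averaged over the other two, against 12.0%, 11.9% and 12.5% for other genes. The difference was 9.21 percentage points ± 0.49, and 2.13 ± 1.21 when an overlap had to reach 50% of both clusters. No p-value is given for it, because recurrence depends on how densely a gene is covered, and density goes with the reads that picked GRB10. Counted by bases, 14.0% ± 0.60 of the GRB10 cluster bases were covered in another replicate, 2.56 times the 5.49% of the span covered by clusters. Over the 15 protein-coding genes with at least 100 clusters in every replicate, GRB10 ranked 2 by the share of clusters found again, 3 by the covered share and 13 by the ratio of shared to covered bases. The median ratio of those genes was 3.51.

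Merged over replicates, GRB10 had 452 sites. Of these 357 were in 1 replicate, 82 in 2 and 13 in all 3. Sites in 1 replicate had a median of 10 reads, against 34 summed reads in 2 and 51 in 3, which in part follows from summing. The 2-replicate site with most reads, chr7:50649106-50649428 in intron 7, had 52 and 79 reads in replicates 1 and 2 and none listed in replicate 3. THSD4 and TBCD had 16.7% ± 1.24 and 16.6% ± 0.26 of clusters found in another replicate, and SND1 11.7% ± 0.22, all below GRB10 in mean (SD, n = 3).

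IGF1R had 105 merged sites, 7 of them in 2 replicates and 0 in all 3. IGF2R had 73, with 6 in 2 replicates and 1 in all. That site is shown because it is the only one held by all replicates among the other 7 members. It lies in intron 1, on the plus strand, with 22, 10 and 11 reads, and capitals mark the 28 nt covered in all 3 replicates.
IGF2R site, chr6:159980854-159980909, intron 1: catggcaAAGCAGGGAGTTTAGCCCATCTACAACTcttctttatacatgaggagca

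It holds no ATCTT, which says only that these letters are not in this window. The 7 other members pooled had 10%, 8.86% and 6.52% of clusters found again, a difference from other genes of -3.66 percentage points ± 2.08, a sign shared by 3 of 3 replicates (exact sign-flip p = 0.25, adjusted 0.312). Without replicate 3 the difference was 0.128, with replicates 1 and 2 compared only with each other. It was -2.35 with an overlap of 50% of both clusters, -5.64 with clusters of at least the median of reads, -7.08 weighted by reads and -7.97 with at least 3 distinct reads. Clusters covered 0.503% ± 0.13 of IGF1R and 0.773% ± 0.060 of IGF2R (SD, n = 3), and the part of coverage in this difference was not tested. By bases, the ratio of shared to covered was 6.61 for IGF1R and 11.0 for IGF2R. The median was 5.32 over the 1149 protein-coding genes with at least 20 clusters in every replicate.

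**Figure D4:**
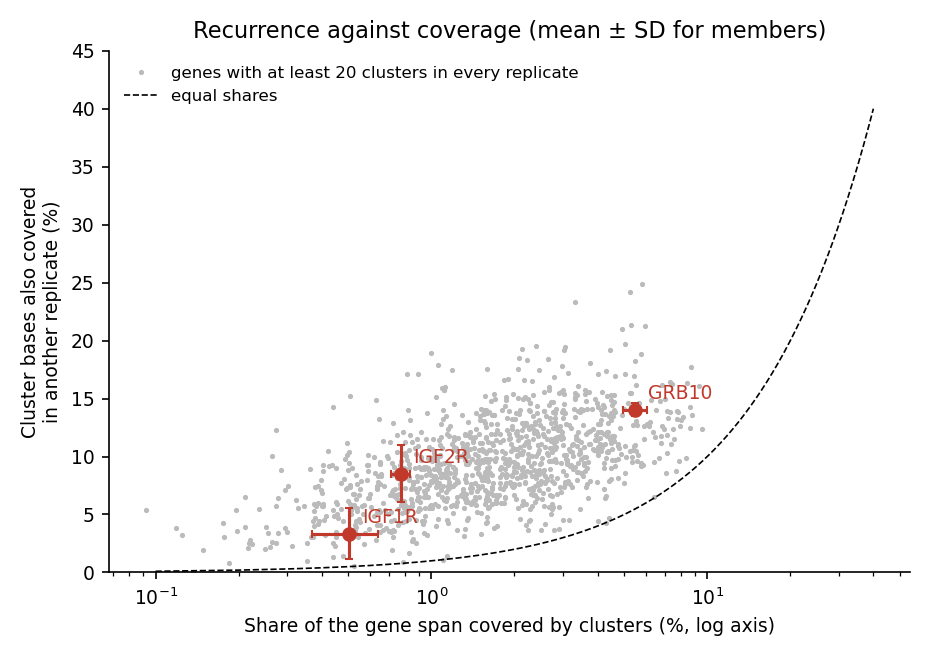
Share of cluster bases covered in another replicate, in percent, against the share of the gene span covered by clusters, in percent on a log axis, for protein-coding genes with at least 20 clusters in every replicate (grey). Red points are means with SD over 3 replicates, and the dashed curve marks equal shares. For GRB10, at 5.49% covered, the shared part was 2.56 times the covered part, a lower ratio than the 6.61 of IGF1R and 11.0 of IGF2R.

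INSR is the sparse receptor, and all its clusters can be listed. The 3′ UTR held 7 reads in replicate 1 at chr19:7115170-7115201 and 15 in replicate 3 at chr19:7115136-7115188. These were the only INSR clusters that overlapped between replicates. The shared 19 nt are shown as the recurring INSR position, 5′ to 3′ from the minus strand, all in capitals because both clusters covered them.
INSR 3′ UTR, chr19:7115170-7115188: TGCTTCCTTTTCTTCTTCT

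Every base of it other than 1 G is C or T. T-to-C was carried by 57.1% and 40% of the reads of the 2 clusters. Introns 3 and 1 had 10 and 5 reads in replicate 2, and introns 16 and 2 had 8 and 6 in replicate 3, none of them seen again. In GRB14, the relative of GRB10, 5 reads lay in intron 6 in replicate 1 and 7 in intron 2 in replicate 2. IRS2 had 7 reads at chr13:109770622-109770657 and 6 at chr13:109761508-109761542, both in its single intron, from 1 distinct read each.

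Reads that carry T-to-C mark how much of the signal came from crosslinked uridines. In GRB10 introns it was 85.3%, 83.8% and 84.3%, against 87.6%, 86.8% and 88.0% in introns of other genes. The difference of -2.99 percentage points ± 0.69 was negative in each of 3 replicates. No p-value is given for it, because this share falls with reads per cluster and GRB10 was picked for its reads. Counted per T position the difference was 0.0914 percentage points ± 0.13, of opposite sign and within the spread (SD, n = 3). With clusters of at least 3 distinct reads it was -1.65, and with at least the median of reads -1.77. GRB10 intron clusters had medians of 12, 10 and 12 reads against 9, 8 and 9 in other genes, and the part of cluster depth in the difference was not tested. Among clusters of at least 20 reads the share was 78.8% ± 1.78 in GRB10 and 79.1% ± 0.78 in other genes. From 10 to 19 reads it was 87.6% ± 2.06 and 87.3% ± 1.45, and from 4 to 9 reads 94.4% ± 0.44 and 95.9% ± 0.93 (SD, n = 3). The classes of at least 20 and of 10 to 19 reads differed by less than the spread. These depth classes were chosen after the values were seen.

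In the introns of the other 7 members the share was 94.3% ± 1.75, 6.88 percentage points ± 1.37 above other genes, a sign shared by 3 of 3 replicates (exact sign-flip p = 0.25, adjusted 0.312). Median reads per intron cluster were 7, 6.5 and 7.5 in IGF1R and 8.5, 8 and 7.5 in IGF2R, below or near those of other genes. IGF1R had 96.4%, 94.2% and 97.4%, and IGF2R 90.7%, 91.9% and 94.6%, all above GRB10. A listed cluster had at least 4 T-to-C reads, so one of 4 reads carried T-to-C in all. The share was thus bound to be high in shallow clusters, and the part of cluster depth in this difference was not tested.

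C and T made up 55.9%, 55.3% and 56.7% of the bases of GRB10 intron clusters, against 58.0%, 56.5% and 58.0% in other genes. The difference of -1.51 percentage points ± 0.51 was negative in each of 3 replicates (exact sign-flip p = 0.25, adjusted 0.312). It was -2.43 as a difference of medians over clusters. T alone was 29.6% ± 0.53 in GRB10 and 31.9% ± 0.88 in other genes, and C was 26.4% ± 0.34 and 25.5% ± 0.051 (SD, n = 3). The lower pyrimidine content thus lay in T. The other 7 members had 57.3% ± 0.86 C and T, which differed from other genes by -0.132 percentage points ± 1.37, within the spread (exact sign-flip p = 1.0). ATCTT occurred in 14 of 185, 19 of 182 and 15 of 181 GRB10 intron clusters, or 8.76% ± 1.49, against 9.69% ± 0.37 in other genes, a difference below the spread of GRB10 (SD, n = 3). IGF1R had 1, 4 and 2 such clusters and IGF2R 1, 2 and 1. GRB10 intron clusters were longer, with medians of 46, 49 and 44 nt against a mean of 38.7 nt ± 1.53 in other genes.

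**Figure D5:**
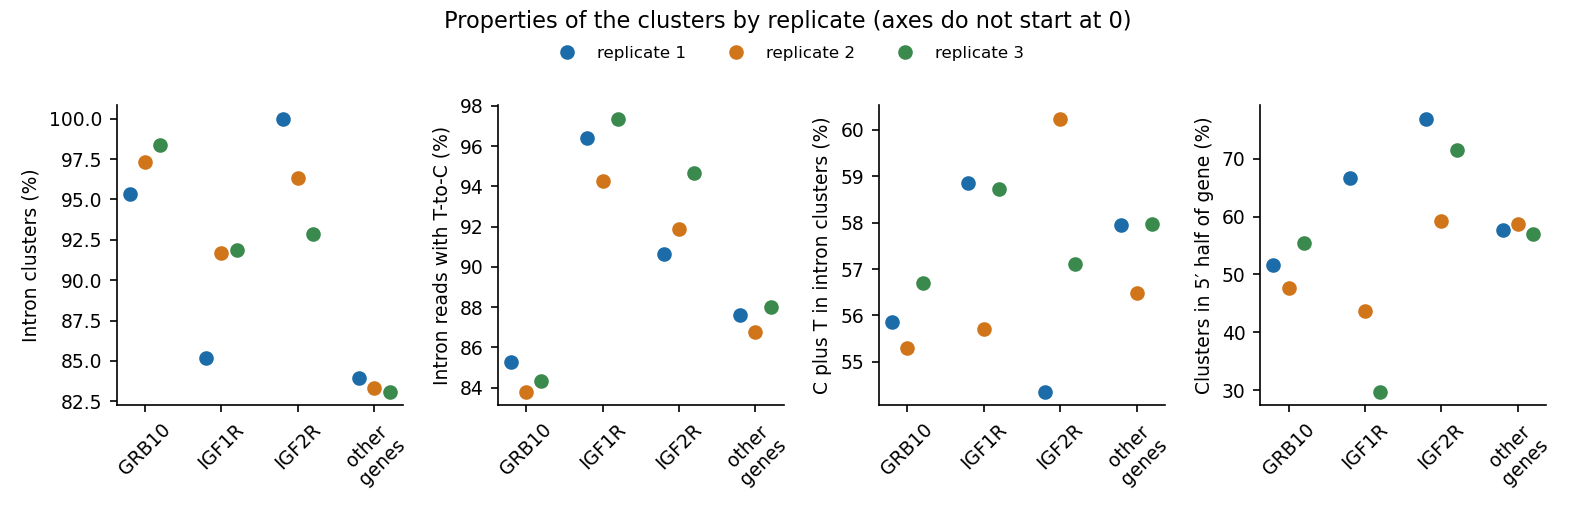
Share of intron clusters, share of intron reads with T-to-C, C plus T content of intron clusters, and share of clusters upstream of the midpoint of the gene, all in percent, with 1 point per replicate. GRB10 lies above other genes in intron share and below them in T-to-C reads in 3 of 3 replicates, while IGF1R and IGF2R lie above them in T-to-C reads.

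The rest of the pathway was read from a list of 57 genes. It includes the 3 IGF2 mRNA-binding proteins, which bind transcripts and are not themselves signalling components, but are counted here with the pathway genes. All 3 replicates listed clusters for 34 of them, while 3 genes were seen in 2 replicates, 5 in 1 and 15 nowhere, a share of 59.6% in all 3 beside the 40.7% of protein-coding genes. Length enters this count. Of the 17 genes of at least 100 kb, 16, or 94.1%, had clusters in all replicates, beside 56.4% of protein-coding genes of that length. Of the 40 shorter ones 18 did, or 45%, beside 37.2% of shorter protein-coding genes. Among the 34, the median of the geometric mean normalised reads was 120.3, against 59.5 over all protein-coding genes with clusters in all replicates, and the median density was 25.3 clusters per 100 kb against 20.2. These medians were not matched for gene length. Of the 34, 16 span at least 100 kb, beside 2067 of the 8157 protein-coding gene names. The 3 IGF2 mRNA-binding proteins are among the 34 and ranked 1, 2 and 4 of the list by these reads. GRB10 lay above all 57 in normalised reads.

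Of the 10 ligands and carriers 1 had clusters in all replicates, or 10%, beside 37.2% of protein-coding genes under 100 kb. Their median span of 12.0 kb was the shortest of the groups. INS, IGF1, IGF2, IGFBP1, IGFBP3, IGFBP5, IGFBP6 and IGFALS had none, IGFBP4 had 1 cluster in replicate 3, and IGFBP2, an IGF-binding protein, had 5, 8 and 1. Among receptor relatives and adaptors, of median span 87.6 kb, 10 of 15 had clusters in all replicates. This is 66.7%, beside 40.7% of all protein-coding genes, a share not matched for length here or in the groups below. GIGYF2, which binds GRB10 and acts in translational repression, had 638, 469 and 708 reads, or 438 normalised reads ± 84.0 (SD, n = 3). SOS1, the exchange factor that activates RAS, had 338 normalised reads ± 48.9. INSRR, DOK4 and DOK5 had none.

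Kinases, of median span 89.0 kb, had clusters in all replicates in 8 of 12 genes, or 66.7%, beside the same 40.7%. AKT2, the AKT form central to insulin-driven glucose uptake, had 36, 48 and 39 clusters and 436 normalised reads ± 110 (SD, n = 3). PDPK1, which phosphorylates AKT, had 285 normalised reads ± 76.4. PIK3CD had none. Among phosphatases and inhibitors, of median span 81.0 kb, 7 of 10 had clusters in all replicates, or 70%, beside 40.7%. PTPN1, which dephosphorylates the insulin receptor, had 202 normalised reads ± 44.2 (SD, n = 3). ENPP1, SOCS1 and SOCS3 had none. Effectors, of median span 55.5 kb, reached all replicates in 5 of 7 genes, or 71.4%, beside 40.7%. FOXO3, a transcription factor restrained by AKT, had 274 normalised reads ± 84.5, with 111 of its 112 clusters in introns.

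The 3 IGF2 mRNA-binding proteins, which bind and stabilise transcripts, all had clusters in every replicate, beside 40.7% of protein-coding genes. Their median span was 160 kb, and among protein-coding genes of at least 100 kb the share was 56.4%. IGF2BP2 had 1667, 1034 and 1131 reads in 106, 83 and 90 clusters, or 921 normalised reads ± 201, the highest of the list (SD, n = 3). IGF2BP3 had 486 ± 32.0 and IGF2BP1 432 ± 45.9. All 279 clusters of IGF2BP2 were in introns, whereas 25 of the 130 of IGF2BP1 lay in the 3′ UTR.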

How the data were processed

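The authors deposited 1 table of MATR3 PAR-CLIP clusters per replicate, called separately, on hg38 per the submitters' processing notes; aligner and caller are not given in the sources used here. Reads, distinct reads and conversion events are raw counts per cluster, per the file headers. The T-to-C fraction the authors deposited for each cluster, from 0 to 1, was multiplied by its read count. All cluster sequences equalled hg38 at their coordinates, read as 1-based. Gene spans and exons came from GENCODE release 44. Of the gene names in a file, 92.2% ± 0.25 matched it, in part by way of synonyms that RefSeq lists (SD, n = 3).

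Clusters were found again when one of another replicate shared 1 nt or more with it, strand included. Other genes means all named clusters outside the 8 members. Tests were exact two-sided sign-flip tests over 3 replicates, with Benjamini-Hochberg adjustment over 10 tests; 0.25 is the smallest p, so none could pass 0.05. The tests of GRB10 intron share, recurrence and T-to-C share are among the 10 and are not printed, since the selection bears on them. Scripts used Python 3.11.15, pandas 2.3.3 and numpy 2.4.6, and were tested on simulated data.

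The members, the pathway list and the tests were chosen with earlier results of these data known. Named were all members, the 10 pathway genes with the largest geometric mean normalised reads, those with no cluster, the 5 genes nearest to GRB10, and sites held by all replicates. Further genes were picked for the text from their values, and some results that the rule covers are not reported here. Alternatives were stricter cluster sets, other overlaps, weights, measures and denominators, and leaving out each replicate. Reads carry no molecular identifiers and can include copies. The labels call the replicates biological.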

Additional observations from a re-analysis of the deposited data

How the results depend on the processing

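Over 12 results, 75 values were recomputed. Of these 7 changed sign and 2, both levels of GRB10, moved by more than the spread. The other 66 kept the sign of a difference, the level within its spread or the count within 1.5 times, but differences could change in size. The recurrence difference of GRB10 was 2.13 percentage points with an overlap of 50% of both clusters, 6.44 when clusters under 3 distinct reads were dropped and 7.97 when those below the median of reads were. Its intron share difference was 17.0 weighted by reads. GRB10 had 1884 normalised reads with the reads of all deposited clusters as denominator, which is larger, and 2389 with clusters of at least 3 distinct reads. The difference in T-to-C between GRB10 and other genes changed sign when counted per T position, at 0.0914 percentage points. The other sign changes were in the 7 other members pooled. Their pyrimidine difference was 0.216 percentage points for the median over clusters. Their difference in the share upstream of the gene midpoint was 0.0448 when clusters below the median of reads were dropped. Leaving out each replicate gave -0.767 to 0.594 percentage points for the former, -9.32 to 1.72 for the latter and -7.23 to 0.128 for recurrence. The cause was not tested. The count of 34 pathway genes was 34 to 36 when each replicate was left out, 30 when each replicate had to hold 2 clusters of the gene, and 29 when clusters under 3 distinct reads were dropped. Members and other genes were compared within each replicate, and there is no second group of samples to pair with.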

Other observations

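The strand opposite to the 8 genes held no cluster within any of their spans in 3 of 3 replicates, with the middle of a cluster as its position. Within the spans, all clusters on the gene's own strand carried the gene's name. In the 10 kb upstream of the 8 genes no cluster was listed in any replicate. Downstream, over the same distance, GRB10 had 1 unannotated cluster of 6 reads, in replicate 3, and none in replicates 1 and 2. The 184 to 194 clusters of GRB10 thus ended close to its annotated borders at the level of at least 4 reads.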
